A study of Drosophila melanogaster with 4 samples.

Results

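The 2 Mb of sequence nearest the telomere were examined on 4 chromosome arms of Drosophila melanogaster, 2L, 3L, 3R and X, for regions enriched in chromatin bound by LSD1. These regions come from the authors' lists of significant enrichment and are called clusters here. A cluster was counted when its midpoint lay between positions 1 and 2000000 of 2L, 3L or X, or between 25905054 and 27905053 of 3R, in the coordinates of FlyBase release 5. Position alone chose them, and no measured value entered the rule, though the tips were chosen with earlier results of these data known. By this rule the combined list of the replicate set gave 657 of its 9853 clusters (6.67%), with 144 on 2L, 189 on 3L, 159 on 3R and 165 on X. The list of replicate 1 gave 403 of 5704 and that of replicate 2 gave 549 of 7936.

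The clusters were mapped by chromatin immunoprecipitation and sequencing (ChIP-seq) on nuclei of L3 larvae (the last larval stage) of the wild-type strain Oregon-R. The groups were 2 ChIP libraries made with the LSD1 antibody Q3430 and 2 input libraries of unselected chromatin, each input serving 1 ChIP library. All 4 samples shared strain, genotype, stage and formaldehyde fixation, and the homogenised larval tissue holds many cell types that these lists cannot separate. Separate larval collections for the replicates are not stated in the labels, and the spread between the replicates may therefore be technical. Read numbers are in none of the lists. The sequencing depth is thus unknown, and bare stretches and stretches with too few mapped reads cannot be told apart.

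LSD1 is encoded by Su(var)3-3 in the fly and removes methyl groups from a lysine of histone H3 that marks active chromatin. Mutations in the gene relieve silencing next to heterochromatin, and the enzyme is known for its part in setting the border between heterochromatin and euchromatin. Fly telomeres lack telomerase repeats and are instead built from arrays of telomeric retrotransposons, with satellite-like telomere-associated sequence on their inner side. Genes placed close to these ends can be silenced, which is called telomere position effect. The question here is how LSD1 enrichment is laid out from the outer end of each arm sequence inwards. Genes were not placed on the clusters, because no annotation of release 5 was used here.

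Clusters covered a larger share of the 4 tips together than of the rest of the same arms, in both replicates. In replicate 1 they covered 28.0% of the tips and 22.9% of the rest, and in replicate 2 they covered 30.2% of the tips and 24.6% of the rest. The difference was 5.29 ± 0.38 percentage points (SD, n = 2), and in the combined list it was 6.76 points, from 40.0% of the tips against 33.2% of the rest. Its size depended on the length taken as tip, with 8.03 ± 0.54 points for 1 Mb and 3.49 ± 0.30 points for 3 Mb (SD, n = 2). The direction was the same in 2 of 2 libraries, but an exact two-sided sign-flip permutation test over 2 libraries gives p = 0.5, the smallest it can give. When the 2 Mb nearest the centromere were also left out of the comparison, the interior of the arms was covered to 23.7% in replicate 1 and 25.2% in replicate 2.

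The excess at the tips was shared out unequally over the arms. On 3L the tip was covered to 36.0% in replicate 1 and 36.4% in replicate 2, against 25.8% and 28.4% of the rest of that arm. On 2L the tip had 28.6% in replicate 1 and 31.4% in replicate 2, against 22.4% and 25.6% of the rest. The gaps to the rest on these 2 arms were 9.15 ± 1.50 and 6.01 ± 0.31 percentage points (SD, n = 2 each). On 3R the tip had 24.2% and 28.8%, against 22.7% and 25.1% of the rest. On X the tip had 23.0% and 24.1%, against 20.7% and 18.8% of the rest. The gaps were 2.56 ± 1.51 points on 3R and 3.84 ± 2.07 points on X (SD, n = 2 each), so the spread between the replicates was large beside them.

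**Figure D1:**
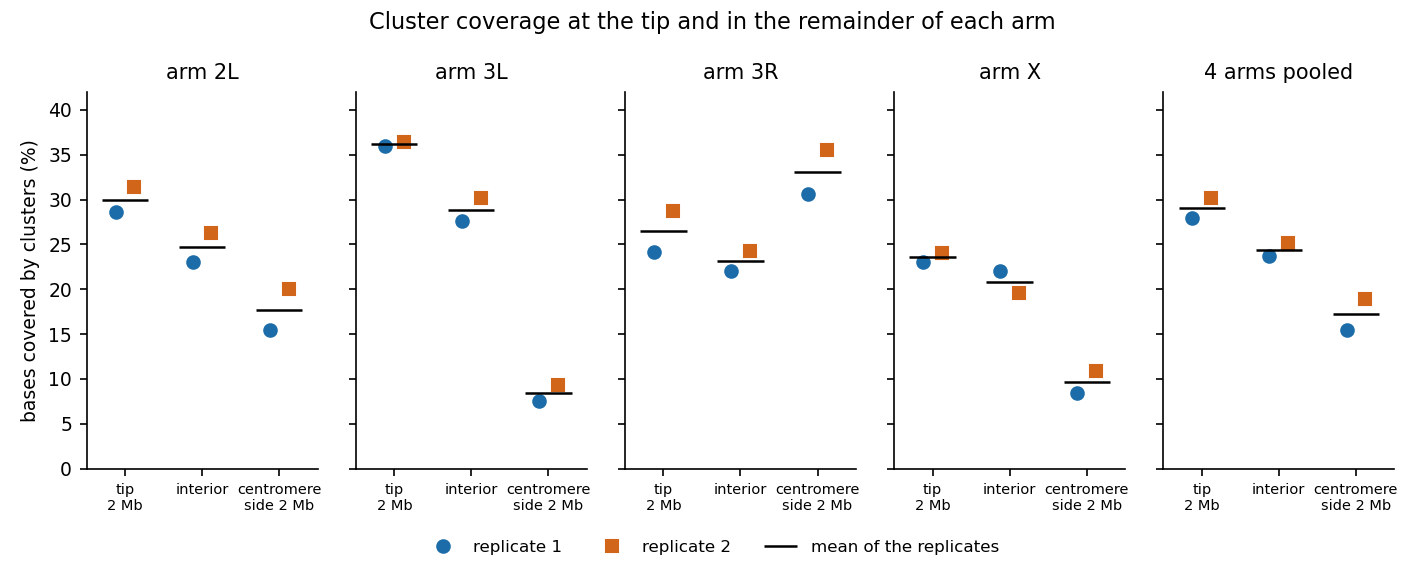
Share of bases covered by LSD1 clusters (y axis, percent) at the tip of 2 Mb, in the interior and in the 2 Mb nearest the centromere of each arm and of the 4 arms pooled; circles are replicate 1, squares replicate 2 and lines their mean (n = 2). The tip mean lies above the interior mean on all 4 arms, and 3R is the arm whose centromere side is covered more (30.6% and 35.5%) than its tip (24.2% and 28.8%).

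Among the full windows of 2 Mb laid from the tip inwards, the outermost window of 3L ranked 1 of 12 by coverage in replicate 1 and 2 of 12 in replicate 2. That of 2L ranked 2 and 3 of 11, and that of 3R ranked 5 and 4 of 13. On X the libraries differed, with rank 7 of 11 in replicate 1 and rank 2 of 11 in replicate 2. In replicate 1 the X tip, at 23.0%, lay beside the median of the other X windows, 23.1%, and in replicate 2 its 24.1% stood against a median of 20.0%. The excess also depended on where the tip was taken to end. With 1 Mb in place of 2 Mb the gap grew to 22.2 points on 3L, while on 3R it was -0.18 points in replicate 1 and 0.15 in replicate 2. On X it was then -2.36 points in replicate 1 and 5.55 in replicate 2, so the libraries disagreed in direction there. With 3 Mb the gap was 3.16 points on 2L, 5.63 on 3L, 0.25 on 3R and 5.38 on X. On X it was then positive in both libraries, with 4.31 points in replicate 1 and 6.44 in replicate 2.

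**Figure D2:**
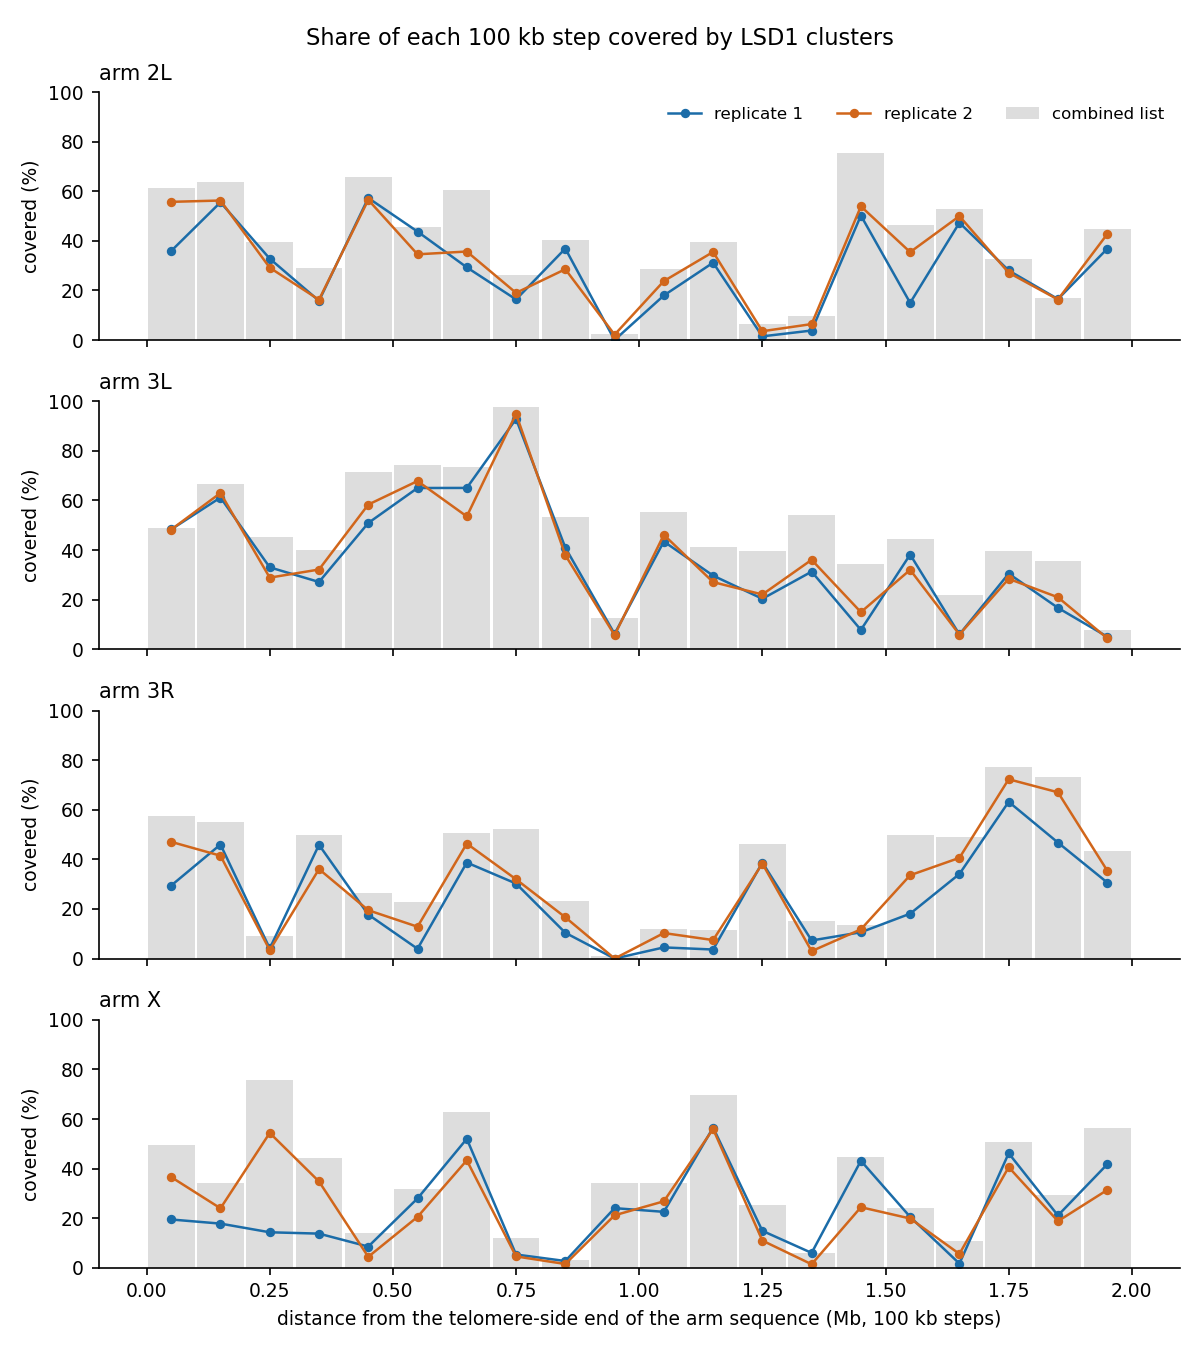
Share of each 100 kb step covered by clusters (y axis, percent) against distance from the telomere-side end of the arm sequence (x axis, Mb); lines are the replicates and bars the combined list. On 3L the steps from 0.4 to 0.8 Mb are all above 50% in both replicates, on 3R coverage is at or near 0 from 0.9 to 1.0 Mb, and on X the replicates part in the outermost 0.4 Mb.

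The tip of 3L was more densely covered in its outer megabase than in its inner one. Its outermost 100 kb held no cluster in the first 51081 bp in any list, and the other part of the step was almost filled, with 48.3% of the step covered in either replicate and 48.9% in the combined list. The next step, from 100 to 200 kb, had 61.2%, 63.0% and 66.8% in the same order of lists. Between 200 and 400 kb coverage was lower, from 27.1 to 33.0% in the replicates. From 400 to 800 kb it stayed above 50% in both replicates and was highest at 700 to 800 kb, where clusters took 92.9% of the step by replicate 1, 94.9% by replicate 2 and 97.8% by the combined list. This was the most covered of the 80 steps of the 4 tips in each list. Inwards of it coverage was lower, with 41.0%, 38.0% and 53.3% at 800 to 900 kb and 6.21%, 5.71% and 12.5% at 900 to 1000 kb. In blocks of 500 kb, the mean coverage of the replicates was 45.1 ± 1.42%, 53.0 ± 1.44%, 27.9 ± 1.94% and 18.8 ± 0.66% from the tip inwards (SD, n = 2).

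The tip of 2L held both rich and nearly empty steps. The richest was 400 to 500 kb, where replicate 1 had 57.3%, replicate 2 had 56.5% and the combined list 65.8%, followed by 100 to 200 kb with 55.5%, 56.2% and 63.7%. Another rich step, at 1400 to 1500 kb, had 50.2% and 53.9% in the replicates. In the combined list it had 75.3% and ranked first among the steps of this tip. Between these lay steps with hardly a cluster. At 900 to 1000 kb replicate 1 had none, replicate 2 covered 2.15% and the combined list 2.49%, and at 1200 to 1300 kb the 3 lists had 1.48%, 3.55% and 6.62%. At 1800 to 1900 kb the 3 lists had 16.5%, 16.3% and 17.0%, nearly all of it from the wide domain that crosses into the next step.

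On 3R well covered and sparse steps were mixed, and the highest coverage lay near the inner end of the 2 Mb. The outermost 100 kb was covered to 29.4% by replicate 1, 47.1% by replicate 2 and 57.6% by the combined list, and the next step had 46.0%, 41.5% and 54.9%. Further well covered steps lay at 300 to 400 kb, with 45.9%, 36.1% and 49.7% in the same order of lists, at 600 to 700 kb, with 38.7%, 46.4% and 50.4%, and at 1200 to 1300 kb, with 38.7%, 38.3% and 46.2%. From 900 to 1000 kb neither replicate had a cluster, and the combined list covered 1.03% of the step, the lowest of its 80 values. The 3 steps from 900 to 1200 kb stayed at or under 10.3% in the replicates and 11.96% in the combined list. At 1700 to 1800 kb coverage reached 63.2%, 72.3% and 77.4%, the highest on this tip in each list, and the next step had 46.8%, 67.0% and 73.4%. The innermost 500 kb block thus had 44.2 ± 7.95% and the block before it 13.6 ± 0.85% (SD, n = 2). The outer 2 blocks had 29.1 ± 0.62% and 19.1 ± 3.47%.

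On X the libraries disagreed in the outer part of the tip. Its highest step in the replicates was 1100 to 1200 kb, where replicate 1 had 56.6%, replicate 2 had 56.0% and the combined list 69.8%. The step from 600 to 700 kb had 52.0%, 43.3% and 62.8%. Between them lay sparse steps, with 5.37%, 4.60% and 11.96% at 700 to 800 kb and 2.75%, 1.54% and 3.10% at 800 to 900 kb. On X 5 steps were covered to less than 10% in both replicates, as were 4 on 3R and 3 each on 2L and 3L. These were 25% of the steps of the X tip, 20% on 3R and 15% each on 2L and 3L. In the rest of the arms such steps were more frequent, with 31.4% on X, 22.0% on 3R, 31.0% on 2L and 23.6% on 3L.

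Over the 80 steps of the 4 tips the combined list had at least as much coverage as either replicate in 79. Coverage exceeded 50% in both replicates in 10 of the 80 steps (12.5%), against 87 of 898 full steps in the rest of the arms (9.69%). It was below 10% in both replicates in 15 of the 80 (18.8%), against 239 of the 898 (26.6%). The profiles of the replicates ran together, with Pearson's r across the 20 steps of 0.98 on 3L, 0.93 on 3R, 0.91 on 2L and 0.71 on X. These are descriptions across neighbouring steps, which share clusters and are not independent.

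**Figure D3:**
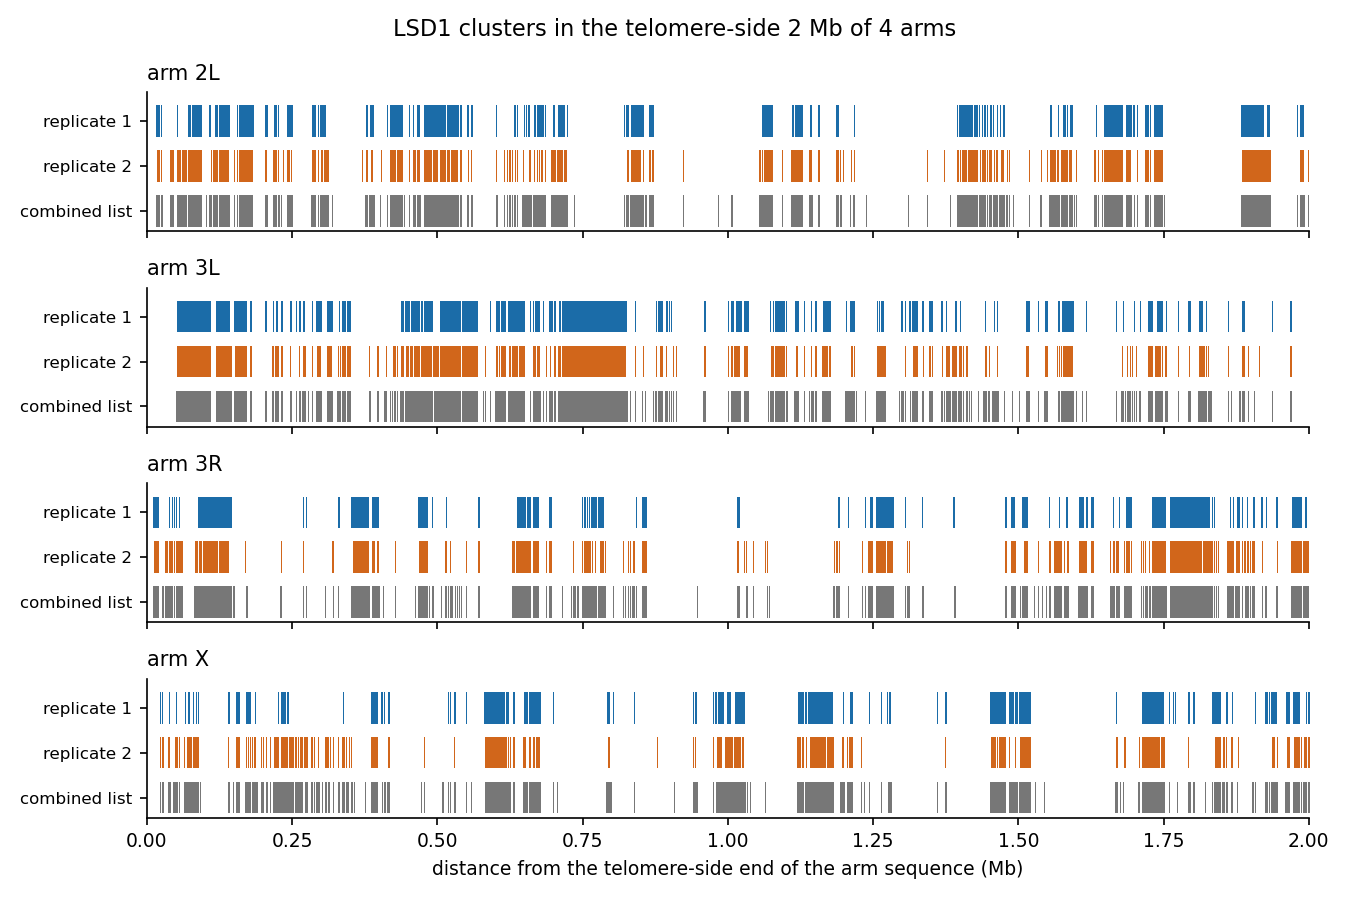
Clusters of replicate 1, replicate 2 and the combined list in the 2 Mb nearest the telomere of each arm, drawn to scale against distance from the end of the arm sequence (x axis, Mb). Rich stretches appear as near-continuous blocks in all 3 lists, such as 3L around 0.7 to 0.8 Mb and 3R around 1.8 Mb, and at 0.2 to 0.4 Mb of X replicate 2 shows many short clusters that replicate 1 lacks.

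The outermost cluster of each arm was found in both replicates and, in the combined list, lay at most 51081 bp from the end of the arm sequence. On 3R it lay nearest to the end, from 27884278 to 27894938 in the combined list, 10115 bp from it, with a value of 0.71. The value is the authors' own, is read here as the log2 ratio of ChIP to input, and is compared only within a list. The same cluster had 0.84 in replicate 1 and 0.77 in replicate 2. On 2L the outermost cluster ran from 15424 to 22772 and its value was 0.82 in the combined list, against 0.92 for replicate 1 and 0.86 for replicate 2. On X it was a short one of 2801 bp from 22192 to 24992, with 0.62, 0.87 and 0.74 in the same order. The outermost cluster of 3L was of another kind, a domain of 60125 bp from 51082 to 111206 with 1.28 in the combined list, which places it in the top 1.17% of that list. It was a single cluster of 59412 bp in replicate 1 and 3 clusters in replicate 2, which covered 98.8% and 98.6% of it.

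The largest values at the tips belonged to broad domains on the autosome arms, taken among the combined clusters found in both replicates. The highest was on 2L from 158114 to 183328, where the combined list has 1.65, replicate 1 has 1.78 and replicate 2 has 1.52, in the top 0.54% of the combined list. It was followed by a domain of 27231 bp on 3L from 542862 to 570092 with 1.38, a domain of 16023 bp on 2L from 835528 to 851550 with 1.37 and one of 16339 bp on 3R from 27421096 to 27437434 with 1.36. Each of these 4 was a single cluster in either replicate, and the replicates covered from 94.1 to 100.0% of them. A further 2L domain from 70658 to 95636 had 1.16, and a further 3L domain from 118382 to 145278 had 1.25. On 3R the next were from 26631948 to 26650652 with 1.09 and from 26069394 to 26143968 with 0.98. On X the 3 largest stood lower and close together, with 1.03 for a domain from 1502136 to 1522672, 1.03 for one from 1138324 to 1183718 and 1.01 for a cluster of 6697 bp from 153402 to 160098. The X domain from 1502136 had 1.39 in replicate 1 and 0.70 in replicate 2.

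Some large values had no support in either replicate. The 3 largest of these belonged to combined clusters of 1005, 1031 and 1057 bp: on 3L from 1221580 to 1222584 with 3.06, on X from 927400 to 928430 with 1.73 and on 2L from 983598 to 984654 with 1.61. The first was the largest value of all 657 clusters. All 3 were narrower than the narrowest cluster of either replicate list, 1301 bp. No list gives the input reads behind a value.

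The widest domain of the 4 tips, and of the whole combined list, lay on 3L from 707156 to 826406 and spanned 119251 bp. It held 16.0% of the covered bases of the 3L tip in replicate 1 and 15.9% in replicate 2. Without its bases the 3L tip was covered to 32.2% and 32.6%, still above the 25.8% and 28.4% of the rest of that arm. On 3R the widest was the domain of 74575 bp from 26069394 to 26143968, with a second of 62159 bp from 27757924 to 27820082. On 2L the widest were 59505 bp from 477328 to 536832 and 51457 bp from 1882964 to 1934420, and on X 45395 bp from 1138324 to 1183718 and 43229 bp from 581326 to 624554. These wide combined domains were often broken up in the replicates: that of 2L from 477328 was 6 clusters in replicate 1 and 8 in replicate 2, and that of 3R from 27757924 was 4 and 7.

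Domains over 10 kb were few. At the tips they held about as many bases as narrower clusters in the combined list and replicate 1, but fewer in replicate 2. Their share of cluster bases there was 51.1% in replicate 1 and 38.9% in replicate 2, against 46.2% and 33.3% in the rest. At the tips 67 of the 657 combined clusters (10.2%) were this wide, against 9.19% of the whole combined list, and they held 49.8% of the covered bases, against 45.0% in the rest of the same arms. All 67 overlapped a cluster of each replicate, as did all 653 such domains of the rest, and at the tips the median share covered was 94.1% by replicate 1 and 91.6% by replicate 2. In replicate 1 there were 49 such domains at the tips (12.2% of its clusters there, against 11.6% of its whole list) and in replicate 2 there were 46 (8.38%, against 6.97%). Their density was 6.13 per Mb at the tips (exact 95% Poisson interval 4.53 to 8.10) and 5.38 per Mb in the rest (4.92 to 5.89) in replicate 1. In replicate 2 it was 5.75 per Mb at the tips (4.21 to 7.67) and 4.48 per Mb in the rest (4.06 to 4.94), so the intervals of tips and rest overlapped in both. The intervals cover counting error only. The median width of these domains was 18385 bp at the tips and 15644 bp in the rest in replicate 1, and 16053 bp and 15043 bp in replicate 2.

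Over the 4 arms pooled, the difference between tips and rest was larger in broad domains than in narrower clusters, but not on every arm. Assigned whole by midpoint, broad domains covered 14.3% of the tips and 10.6% of the rest in replicate 1, and 11.7% of the tips and 8.19% of the rest in replicate 2. Clusters of 10 kb or less covered 13.7% of the tips and 12.3% of the rest in replicate 1, and 18.4% of the tips and 16.4% of the rest in replicate 2. In replicate 2 the order was the reverse on 2L, where broad domains covered 10.9% of the tip and 8.97% of the rest and narrower clusters 20.6% and 16.7%. It was also the reverse on 3R in that replicate, with 9.76% and 8.79% in broad domains and 19.0% and 16.3% in narrower clusters. Narrower clusters covered less of the tip than of the rest on 3R in replicate 1, with 9.63% of the tip and 11.9% of the rest, and on 3L in replicate 2, with 17.8% of the tip and 18.3% of the rest. In number, the tips held 50.4 clusters per Mb (interval 45.6 to 55.5) and the rest 45.6 (44.2 to 47.0) in replicate 1. In replicate 2 the tips held 68.6 (63.0 to 74.6) and the rest 63.6 (62.0 to 65.3). The tip held fewer per Mb than the rest on 3R in replicate 1, with 40 and 44.2, and on 3L in replicate 2, with 66 and 69.7. It held more in every other arm and replicate. The median width of all clusters was 2446 bp at the tips and 2422.5 bp in the rest in replicate 1, and 2234 bp and 2104 bp in replicate 2.

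Although the 2 Mb tips were covered more, the typical cluster there had a slightly smaller value. The median value was 0.61 at the tips and 0.64 in the rest in replicate 1, and 0.59 at the tips and 0.62 in the rest in replicate 2, a difference of -0.03 ± 0.01 on the log2 scale (SD, n = 2). The median was lower at the tip than in the rest of the same arm on all 4 arms in both replicates. Against the interior alone this held except on X in replicate 2, with 0.660 at the tip and 0.658 in the interior. The gap to the rest was widest on 2L in replicate 2, with 0.56 at the tip and 0.62 in the rest. In that replicate it was narrow on 3R, with 0.58 and 0.59, and narrower on X, with 0.660 and 0.662. Domains over 10 kb showed the same order, with medians of 0.99 at the tips and 1.04 in the rest in replicate 1, and 0.90 and 0.97 in replicate 2. On 2L in replicate 1 the order of the broad domains was the reverse, with 1.15 at the tip and 1.07 in the rest. Over all clusters the gap depended on the length taken as tip. With 1 Mb the pooled median was 0.637 in replicate 1 and 0.611 in replicate 2, against 0.643 and 0.617 over the whole lists. In the combined list the outermost 500 kb pooled had a median of 0.450, above the 0.433 of the rest. The blocks inwards of it had 0.403, 0.395 and 0.406. On X the outermost 500 kb had 0.75 in replicate 1 and 0.72 in replicate 2, above their lists. The other 1.5 Mb of that tip had 0.63 and 0.59. Wider clusters had larger values, and across the clusters of the tips Spearman's rho was 0.79 for replicate 1, 0.63 for replicate 2 and 0.54 for the combined list.

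**Figure D4:**
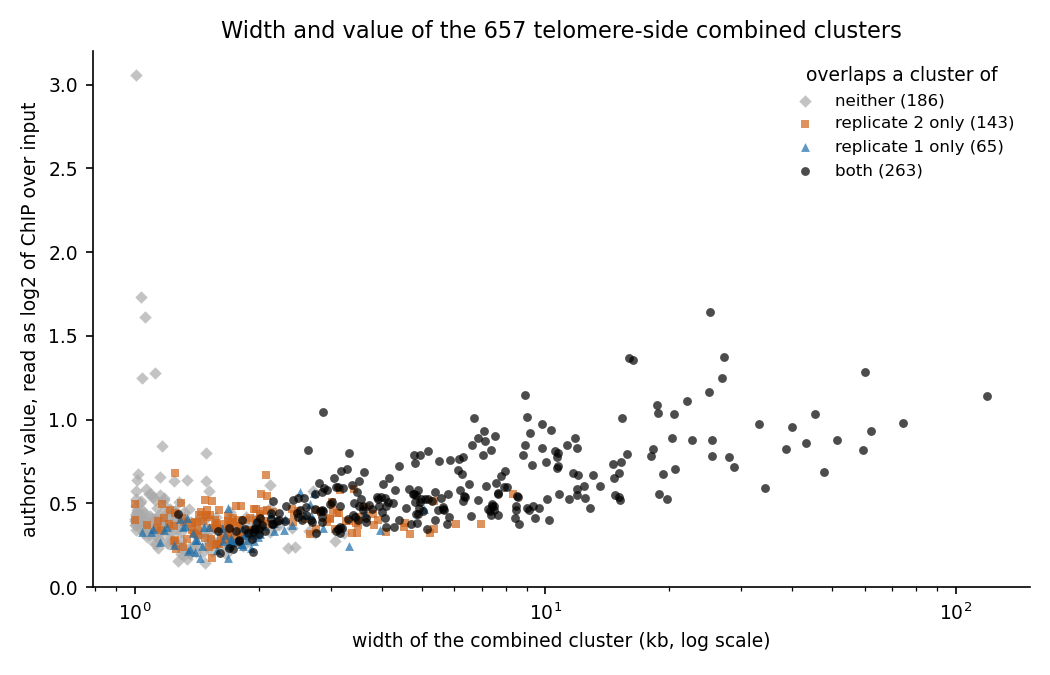
Width (x axis, kb, log scale) and authors' value (y axis, read as log2 of ChIP over input) of the 657 telomere-side clusters of the combined list, by whether they overlap a cluster of both replicates (263), one (65 and 143) or neither (186). Clusters found in both run from 1269 to 119251 bp and include all 67 domains over 10 kb, and the single value above 3 is a cluster of 1005 bp found in neither.

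The agreement of the libraries at the tips was close to that of the whole lists when the arms were pooled, and unequal between arms. Of the 657 combined clusters, 263 (40.0%, exact 95% binomial interval 36.3 to 43.9) overlapped a cluster of each replicate by at least 1 bp, against 38.1% of the whole combined list. Replicate 1 alone was overlapped by 65 of them (9.89%) and replicate 2 alone by 143 (21.8%), against 10.5% and 22.8% in the rest of the arms. Neither was overlapped by 186 (28.3%), against 29.1% of the whole list. The 263 clusters held 78.2% of the bases of the 657, and those found in both held 74.96% in the rest of the same arms. Of the clusters of replicate 1 at the tips, 82.6% overlapped replicate 2, against 80.9% of its whole list, and of those of replicate 2, 67.8% overlapped replicate 1, against 66.3%. On 2L 81 of 144 combined clusters of the tip were found in both (56.25%, interval 47.7 to 64.5) and 621 of 1668 in the rest of that arm (37.2%, interval 34.9 to 39.6). The 2L clusters of replicate 1 overlapped replicate 2 in 91.7% at the tip and 82.3% in the rest, and those of replicate 2 overlapped replicate 1 in 73.2% and 62.2%. On X the order was the reverse, with 53 of 165 (32.1%, interval 25.1 to 39.8) at the tip and 555 of 1426 (38.9%, interval 36.4 to 41.5) in the rest. On 3L the shares were 39.7% and 37.5%, and on 3R 34.0% and 37.0%. Whether these arms differ was not tested over samples, since the combined list is 1 list made from both libraries.

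In bases, at the 3L tip 73.5% of the bases covered in either replicate were covered in both, and in the rest of that arm 67.2%. The 2L tip had 68.5% and its rest 64.1%, the 3R tip 63.4% and its rest 65.5%, and the X tip 56.5% and its rest 62.7%. For each of the 263 clusters of the tips found in both replicates, the value of the cluster overlapping it most was taken from each replicate. Across the 263 these values had a Pearson's r of 0.74 and a Spearman's rho of 0.66. This is a description across clusters of 2 libraries, and some replicate clusters entered more than once.

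The X tip held the step on which the libraries differed most. From 200 to 300 kb, 5 clusters covered 14.3% in replicate 1, while 21 clusters covered 54.4% in replicate 2 and 24 covered 75.6% in the combined list. The difference of 40.1 percentage points was the largest of the 978 full steps of 100 kb on the 4 arms. All 5 clusters of replicate 1 overlapped clusters of replicate 2, and 89.5% of the bases of replicate 1 in this step were also covered in replicate 2, against 23.6% of those of replicate 2 in replicate 1. The widest cluster was common to both, from 231878 to 240431 with 0.98 in replicate 1 and from 231269 to 240639 with 1.05 in replicate 2. Beyond it, from 244306 to 298683, replicate 2 had 14 clusters of 1344 to 5461 bp where replicate 1 had only the end of a cluster at 244506. The values of the 21 clusters of replicate 2 ran from 0.48 to 1.05 with a median of 0.70, against 0.62 for its whole list. The next step, from 300 to 400 kb, was covered to 13.8% by replicate 1, 34.8% by replicate 2 and 44.5% by the combined list.

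**Figure D5:**
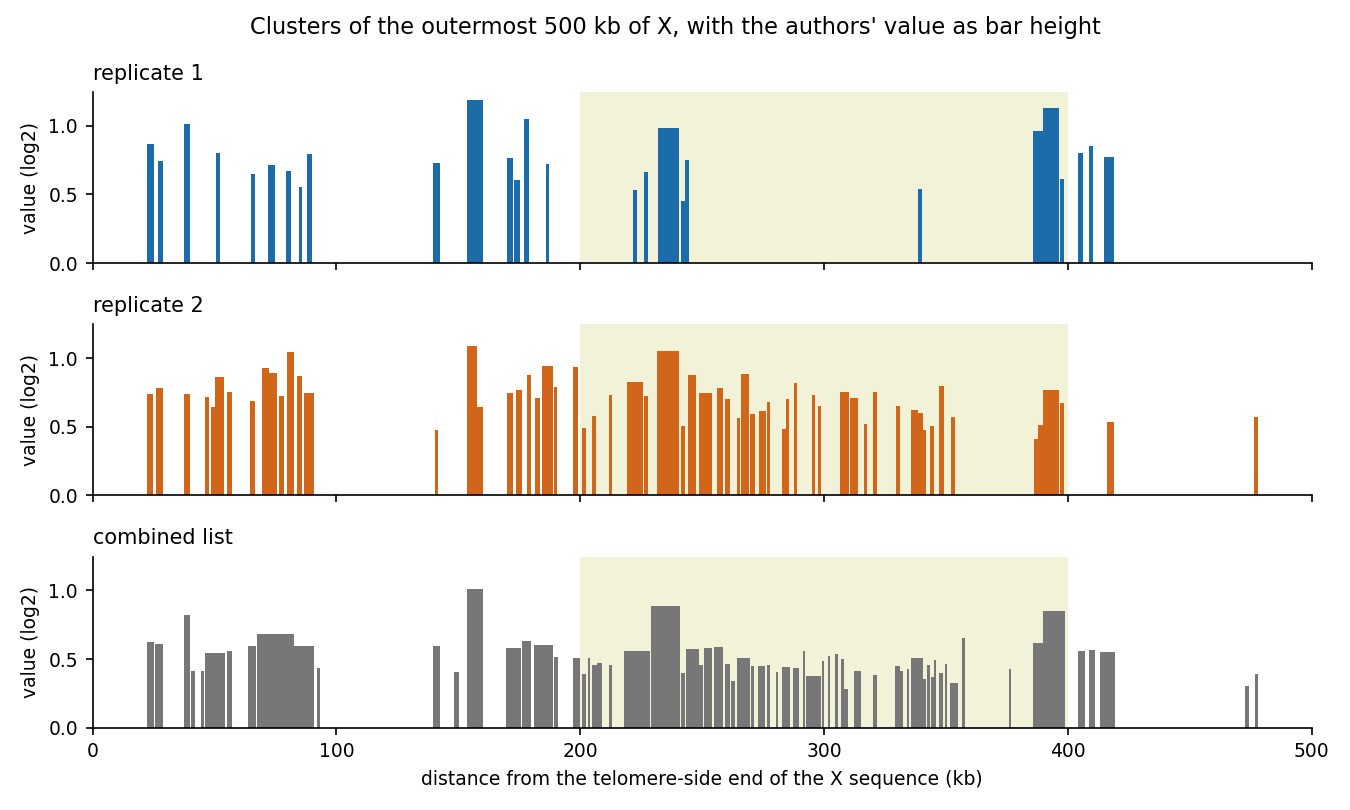
Clusters of the outermost 500 kb of X in each list, drawn to scale against distance from the end of the X sequence (x axis, kb) with the authors' value as bar height (y axis, log2); the shaded band marks 200 to 400 kb. In the band from 200 to 300 kb replicate 1 has 5 clusters and replicate 2 has 21, and the combined list has 24.

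Over the outermost 500 kb of X, 27 clusters covered 14.8% in replicate 1 and 62 clusters covered 30.8% in replicate 2. Over the other 1.5 Mb of the X tip the order turned, with 65 clusters over 25.8% in replicate 1 and 70 clusters over 21.8% in replicate 2, as in the rest of X (20.7% and 18.8%). The outermost 100 kb of 2L, 3R and X also had more coverage in replicate 2, by 19.8, 17.6 and 17.1 percentage points, while on 3L both libraries had 48.3% there. The replicates differed by more than 10 points in 13.75% of the 80 steps at the tips and in 8.91% of the 898 steps of the rest. On X the shares were 25% of 20 steps at the tip and 4.41% of 204 in the rest. Within the broad domains the same places stood out: the combined domain on 3R from 27842266 to 27852362 was covered to 13.7% by replicate 1 and 95.2% by replicate 2, and that on 2L from 51670 to 66870 to 15.8% and 89.5%. These steps and domains were picked after their values were seen, and the part of read depth in the differences was not tested.

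Long stretches without a cluster in either replicate split the rich blocks. On 3R the longest, of 155.3 kb, ran from 26888318 to 27043619, and the combined list placed 1 cluster in it. On X it was 143.3 kb from 1522653 to 1665919, beginning at the inner edge of the domain from 1502136 to 1522672, and on 2L 123.9 kb from 1219012 to 1342886, each with 3 combined clusters. On 3L the longest was the outermost 51391 bp of the arm sequence itself, and the next was 48.7 kb. Gaps of 20 kb or more were measured between neighbouring clusters only, which leaves out the run from an arm end to the nearest cluster. They took up 51.3% of the bases of the tips and 59.5% of the rest in replicate 1. In replicate 2 they took up 45.0% of the tips and 52.3% of the rest. On 3L they took up 33.8% of the tip and 55.8% of the rest in replicate 1, and 32.1% and 46.9% in replicate 2. On 3R in replicate 1 the shares of tip and rest were less than 1 point apart.

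Around the inner limit of the tips, the last cluster inside and the first outside had values of 0.34 and 0.33 on 2L, 0.80 and 0.51 on 3L, 0.48 and 0.38 on 3R, and 0.43 and 0.55 on X, in the combined list. Set against the 2 Mb nearest the centromere, the tips were covered more by 13.2 points on 2L, 28.5 on 3L and 14.6 on X in replicate 1, and by 11.4, 27.1 and 13.2 points in replicate 2. On 3R the tip was covered less than the centromere side, with differences of -6.38 points in replicate 1 and -6.79 points in replicate 2.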

How the data were processed

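Of 4 samples, the 2 LSD1 ChIP libraries have a list of clusters each, and a further list covers the replicate set; the 2 inputs entered only through the authors' calls. Bowtie 0.12.7 was among the tools, per the submitters' processing notes. Not given in the sources used here are the caller, its threshold, the scaling and the way the combined list was made. Per the file headers, coordinates follow FlyBase release 5 (counted from 1). The value of each cluster was deposited by the authors with no unit and was read as log2 from repeated values: of the values that occur at least 4 times, 26 of 45 (replicate 1), 56 of 133 (replicate 2) and 30 of 122 (combined) differed from the commonest one by log2 of a simple ratio, whose denominator was at most 60, to within 1e-06. With the natural log, none did in any list, and with log10 at most 2. Depth is unknown and sets the precision.

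Coverage is the share of bases of a window inside any cluster. Overlap means at least 1 bp. Shares and densities carry exact 95% binomial and Poisson intervals for counting error only. One test was made, the sign-flip permutation over the 2 replicates; clusters are not replicates. The interval code was tested on simulated data. The tips, comparisons and the rule for named clusters (per arm the outermost, the 3 largest values and the 2 widest found in both replicates; overall the 3 largest found in neither) were chosen with earlier results of these data known. The closer account of X and of the outermost steps was added after the values were seen. Python 3.11.15, numpy 2.4.6, pandas 2.3.3, scipy 1.17.1 and matplotlib 3.10.9 were used.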

Additional observations from a re-analysis of the deposited data

Results flagged for a closer look

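Some quantities lay on opposite sides of the comparison on different arms in both libraries, and none of these differences between arms was tested. Coverage of the tip minus that of the 2 Mb nearest the centromere averaged 12.3 points on 2L, 27.8 on 3L and 13.9 on X, but -6.59 on 3R. The median cluster width at the tip minus that of the rest of the arm averaged 216.5 bp on 2L and 171.25 bp on 3L, but -76.5 bp on X. The share of replicate clusters overlapping the other replicate, tip minus rest, averaged 10.2 points on 2L (9.43 in replicate 1 and 10.9 in replicate 2), but -6.17 on X (-0.95 and -11.4).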

How the results depend on the processing

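The excess of tip over rest coverage was positive in 32 of 33 alternatives, from -0.017 to 22.2 points. These alternatives reuse the same lists, and those without a replicate only repeat values of the main result. Where both replicates entered, their mean was counted, so X at 1 Mb counted as positive with -2.36 points in replicate 1 and 5.55 in replicate 2. The cause of each change was not tested. With tips of 1 Mb, pooled coverage was 31.9%, its excess 8.03 points, median width 2502.5 bp and median value 0.62; coverage and excess were 32.9% and 8.73 on 2L, 49.1% and 22.2 on 3L, and 21.6% and 1.59 on X, and the 3R excess was -0.017, a reversal. With 3 Mb, coverage and excess were 27.3% and 3.49 pooled, 27.3% and 3.16 on 2L, 32.8% and 5.63 on 3L, and 24.7% and 5.38 on X. The 3R excess was 0.25. Keeping the upper 50% of clusters by value gave 21.5% and 3.29, 25.9 clusters per Mb, and medians of 5161 bp for width and 0.78 for value. Equal numbers of clusters per list gave 26.9% and 4.68, 2753 bp, 0.64, and 51.5% of combined clusters found in both replicates. That last share was 50.1% with clusters at least as wide as the narrowest of a replicate, 35.5% without 2L and 24.7% with reciprocal overlap of 50%, where replicate clusters shared 47.1%. Coverage and excess were 26.7% and 4.01 without 3L and 30.9% and 5.94 without X (median value 0.58), and the excess was 6.21 without 3R. Against the interior alone the excess was 4.65 pooled, 5.35 on 2L and 7.33 on 3L. Without replicate 1 or 2 the pooled excess lay between 5.02 and 5.56 points, and with 2 libraries each such value lies within the SD by construction. No paired analysis was possible because the inputs sharing the replicate numbers of the ChIP libraries have no lists here. The unknown depth limits every statement about uncovered stretches.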
